A study of Mus musculus with 16 samples.

Results

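The genes described here are the mouse forkhead transcription factors, defined as genes whose symbol is Fox followed by 1 letter from a to s and a number. Of the 20972 genes that the array's probes named, 44 met this rule, and they are all 44 such genes of the RefSeq mouse gene table. They were measured in E14tg2a cells, a line of mouse embryonic stem cells, engineered with a tamoxifen-inducible form of the kinase c-Raf. c-Raf starts the cascade that leads to the kinase Erk, and the series followed expression over a time course of Erk stimulation. Serum and the self-renewal cytokine LIF were in the medium of all cells, which grew on gelatin.

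There were 16 arrays in 8 groups of 2 replicates. The DMSO group received no inhibitor and no 4-hydroxytamoxifen (4OHT), the compound that switches the fusion on. The 0h group had spent 24 h in 250 nM PD173074, an inhibitor of FGF receptors, and received no 4OHT. The groups 30m, 1h, 2h, 4h, 8h and 24h had the same pretreatment and then 250 nM 4OHT for the named time. No group received 4OHT without the inhibitor, and none lacked the fusion, so an effect of 4OHT itself or of time in culture cannot be told apart from that of the active kinase. In RNA from a whole culture, fewer cells of a type and less RNA per cell cannot be told apart either. The labels do not say that replicates were separate cultures, so the spread behind each p-value may be a technical one.

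Forkhead proteins share a DNA-binding domain of winged-helix form and are named by subfamily letter. FOXD3 is needed to maintain pluripotent cells, and FOXH1 is the partner of SMAD proteins that carries Nodal signals to DNA. FOXA proteins open chromatin for endoderm genes, FOXC and FOXF proteins act in mesoderm, FOXJ1 drives the genes of motile cilia, FOXM1 drives cell division genes, and FOXO proteins are held in the cytoplasm by AKT and, in some settings, are phosphorylated by ERK. Several of these controls act on the protein, which an array does not measure.

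The cells carried the markers of their label. All 8 markers of pluripotent cells were well above background on all 16 arrays, and their summed signal ran from 634.9 to 1006 times the array's 75th percentile. Of 8 fibroblast markers, 2 were above background on all arrays and Lum and Fap on none. Markers of other types were present too. Of 8 neural markers 6 were above background on all arrays, and of 8 primitive endoderm markers 3. Each member of these lists was above it on some array. The share of spots well above background was 54.89 to 59.99% on the arrays of slide 1 and 61.47 to 67.23% on those of slide 2. With 2 arrays per group, the array number sets the precision.

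The records of which array is which sample differ, and the forkhead results depend on this. The deposited value table puts replicate 1 of all 8 groups on slide 1 and replicate 2 on slide 2, and every scanner file equals exactly 1 of its columns. For 8 of the 16 arrays the attachment of the scanner file names a different sample from that column's. The value table was followed. Of the 16 forkhead changes called below, 15 could be tested with arrays as attached to the scanner files, and 0 of these passed there: 12 kept their direction and 3 reversed.

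Values are log2 of the processed signal minus the array's 75th percentile, so 0 is the level that 75% of spots do not exceed and a difference of 1 is a doubling. Values in different genes come from different probes and are not compared with each other. Of the 44 genes, 26 were well above background on all 16 arrays (59.09%, against 63.72% of all genes) and 7 on none (15.91%, against 17.31%). The 7 were Foxb1, Foxb2, Foxc1, Foxc2, Foxf2, Foxn1 and Foxp2. Foxd1 and Foxl1 reached it on 1 array each, at 0h. These 9 genes were not tested, which left 35 of 44 in a test over 15660 genes. By group, between 30 and 33 of the 44 were above background on both arrays, with 33 at 0h and 30 at DMSO, 1h, 8h and 24h.

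**Figure D1:**
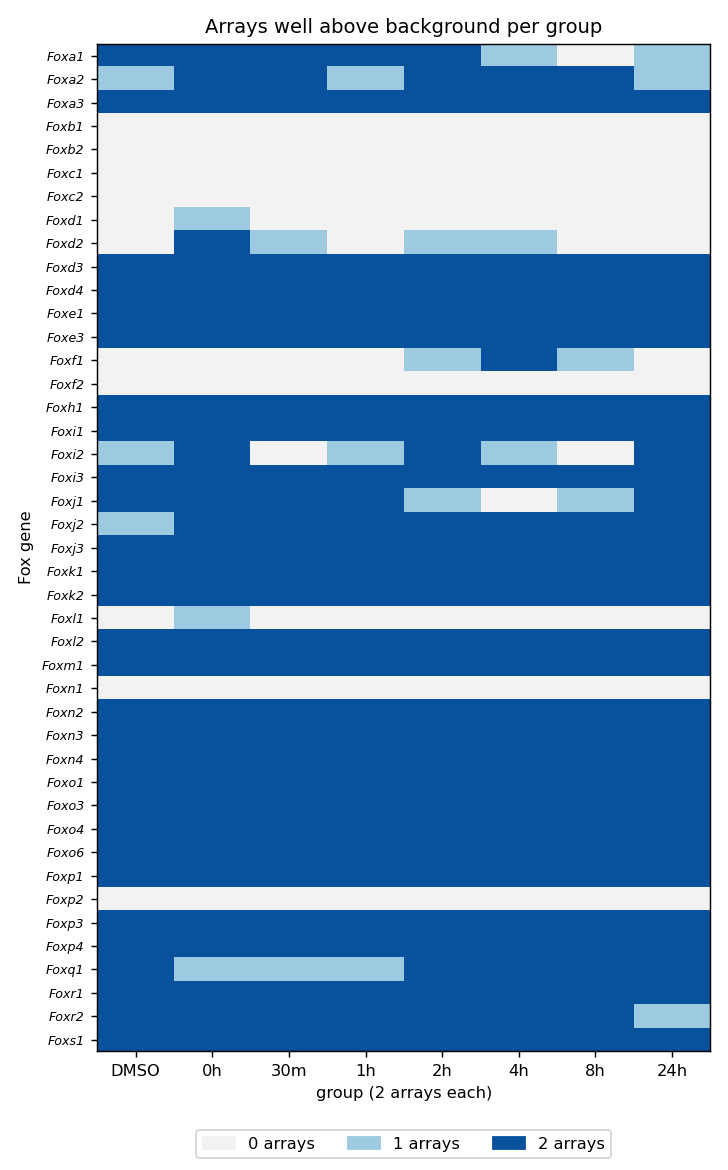
Number of arrays in each group (columns, 2 arrays each) on which each forkhead gene shown (rows) was well above background. Dark rows are genes above background on all 16 arrays, pale rows the 7 above it on none, and Foxf1, Foxd2, Foxa1 and Foxj1 differ between groups.

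Genes were tested with limma's moderated test, adjusted by Benjamini-Hochberg over all 15660 genes, and called at an adjusted p under 0.05. The 24h cells were compared with 0h first, since that comparison held the largest number of calls among the 9 made. Against 0h, 6 of the 35 forkhead genes were called at 24h (17.1%), 3 higher and 3 lower, while 23.7% of all genes were called. Foxj1, Foxq1 and Foxp1 rose, and Foxd2, Foxo6 and Foxd3 fell. With the slide, which is the replicate number, as a block the count was 12, with 5 higher and 7 lower (34.3%, against 39.5% of all genes). The median forkhead difference was -0.08 log2, and that of all genes -0.01. In both fits the share of forkhead genes called was somewhat lower than that of all genes. With 35 genes tested this difference is small, and it was not tested.

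At the earlier times few forkhead genes passed. At 30m, 1h and 2h the limma fit called 0 of 35, while 0%, 0% and 0.115% of all genes were called. At an unadjusted p under 0.05 it gave 0, 1 and 1 forkhead genes at these times, and with the block 0 were called at each (0%, 0.0192% and 0.485% of all genes). At 4h 1 gene, Foxf1, was higher (2.86%, against 3.18% of all genes), and with the block 4 were higher and 6 lower (28.6%, against 16%). At 8h Foxo1 rose and Foxa1 and Foxd2 fell, 3 genes in all (8.57%, against 6.74%), and with the block 3 were higher and 6 lower (25.7%, against 21%).

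The remaining comparisons gave 2 calls each. In 0h against DMSO, the effect of the inhibitor, Foxd2 was higher and Foxp1 lower (5.71%, against 3.5% of all genes), and with the block 3 were higher and 1 lower (11.4%, against 15%). In 24h against DMSO Foxr1 was higher and Foxd3 lower (5.71%, against 11.3%), and with the block 4 were higher and 3 lower (20%, against 26%). In 24h against 8h Foxj1 was higher and Foxd3 lower (5.71%, against 8.81%), and with the block 4 were higher and 2 lower (17.1%, against 22.9%). A test of any difference among the 8 groups called 9 of 35 (25.7%, against 22.9%), and 19 with the block (54.3%, against 49.2%). These comparisons share samples, so their counts are not independent. Over all 9 pairwise comparisons 10 genes were called at least once, 20 were with the block, and 15 tested genes were called in neither. The matching share of all genes was not taken, so these counts are not read as many or few.

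**Figure D2:**
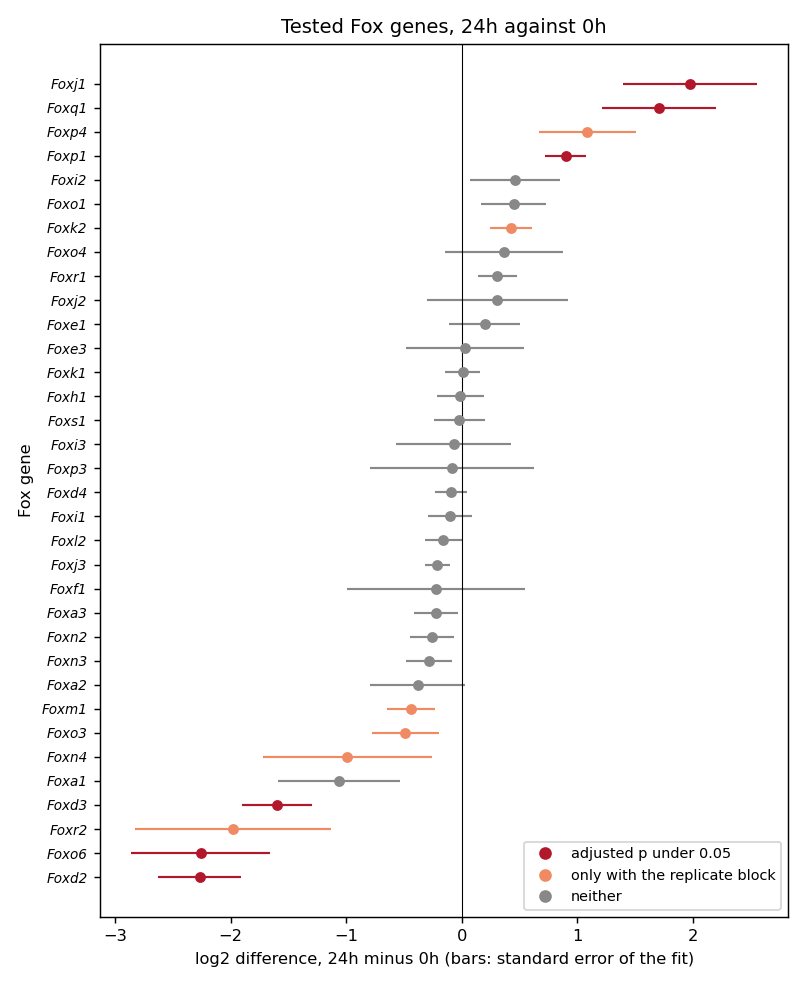
Difference of 24h minus 0h (horizontal axis, log2, with the standard error of the fit over 16 arrays as bars) for the tested forkhead genes shown (vertical axis, ordered by difference). The 6 called genes are dark red, from Foxj1 at 1.98 to Foxd2 at -2.27, and the 6 called only with the replicate block are orange.

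Foxd3, the forkhead gene of pluripotent cells, fell at 24h and was called at no earlier time. Below, the first value of a pair is replicate 1 on slide 1 and the second is replicate 2 on slide 2. Foxd3 stood at 1.90 and 1.56 in DMSO, 2.16 and 1.53 at 0h, 2.24 and 1.61 at 30m, 2.31 and 1.85 at 1h, 2.15 and 2.03 at 2h, 2.12 and 2.10 at 4h, 2.22 and 2.02 at 8h, and -0.11 and 0.60 at 24h. Both 24h arrays were below all 14 others. The difference from 0h was -1.60 ± 0.30 (SE, limma adjusted p = 0.004053), a 3.03-fold lower level, and it was -2.27 on slide 1 and -0.93 on slide 2. Against 8h it was -1.87 ± 0.30 (limma adjusted p = 0.005248), and against DMSO -1.48 ± 0.30 (limma adjusted p = 0.01263). The call against 0h held with each of the 4 arrays left out. That against 8h was lost without 24h replicate 1 (-1.52), and that against DMSO without DMSO replicate 1 (-1.31) or 24h replicate 1 (-1.13), and with median centring (-1.50). With arrays as attached to the scanner files Foxd3 was -0.91 against 0h, which did not pass.

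Genes that act with FOXD3 in stem cells were taken as a list of 10. At 24h against 0h, 1 rose and 5 fell (60%, against 23.7% of all genes), with a median of -0.82 log2, against -0.01 for all genes. At 8h 0 of the 10 were called (0%, against 6.74% of all genes), and their median was 0.03. With the block 1 was higher and 1 lower at 8h (20%, against 21% of all genes, so near that share). The 5 that fell were Nanog, a core factor of naive pluripotency, at -4.64 ± 0.80 (limma adjusted p = 0.002519), Tcf7l1, the repressor that answers Wnt signals, at -2.44 ± 0.28 (0.000318), Tfcp2l1 at -2.37 ± 0.65, Esrrb at -2.00 ± 0.37 and Zfp42 at -1.30 ± 0.32. Utf1, a chromatin protein of pluripotent cells, rose by 1.78 ± 0.42. Of these 10 genes, 6 are also in the list of pluripotency markers, whose summed signal was 721.6 to 758.2 at 0h and 634.9 to 666.9 at 24h. Its part in the Foxd3 result was not tested.

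Promoter sequences from RefSeq (GRCm38.p6) were given for 28 of the 44 genes, in 33 windows of the 250 bases before a transcript's start. Their GC content had a median of 62.0% (37.6 to 80.4%), against 52.4% over all 32851 windows. Both strands were searched for the forkhead site GTAAACA, the CRE TGACGTCA bound by CREB, the AP-1 site TGACTCA bound by Fos and Jun, the EGR sites GCGGGGGCG and GCGTGGGCG, and the ETS site CCGGAAGT. These stood in 3.17%, 1.55%, 4.46%, 3.06% and 2.88% of all windows. Among forkhead windows Foxa1 held the forkhead site, Foxd3 the CRE and Foxe3 the AP-1 site, and the EGR and ETS letters were in none. A match is a run of letters and not a measured site. The windows of Foxd3 and Foxa1 are shown because they are the called genes with a match, in capitals, and that of Foxo1 beside them as a called gene without one. The CRE letters begin 233 bases before the start of Foxd3, and the forkhead letters 141 bases before that of Foxa1. The windows are Foxd3 at chr4:99656049-99656298 on the plus strand, Foxa1 at chr12:57546112-57546361 on the minus strand and Foxo1 at chr3:52268087-52268336 on the plus strand, each printed 5′ to 3′ along its gene.
Foxd3: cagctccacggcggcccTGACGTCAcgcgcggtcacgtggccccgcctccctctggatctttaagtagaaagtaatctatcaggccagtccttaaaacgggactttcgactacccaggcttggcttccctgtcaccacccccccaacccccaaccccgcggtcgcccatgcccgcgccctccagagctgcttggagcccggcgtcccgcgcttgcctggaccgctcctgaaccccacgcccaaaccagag
Foxa1: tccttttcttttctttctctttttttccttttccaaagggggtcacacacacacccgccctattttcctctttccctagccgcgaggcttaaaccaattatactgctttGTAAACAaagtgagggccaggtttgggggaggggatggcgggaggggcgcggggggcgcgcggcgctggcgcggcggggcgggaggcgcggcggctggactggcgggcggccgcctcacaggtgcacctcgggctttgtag
Foxo1: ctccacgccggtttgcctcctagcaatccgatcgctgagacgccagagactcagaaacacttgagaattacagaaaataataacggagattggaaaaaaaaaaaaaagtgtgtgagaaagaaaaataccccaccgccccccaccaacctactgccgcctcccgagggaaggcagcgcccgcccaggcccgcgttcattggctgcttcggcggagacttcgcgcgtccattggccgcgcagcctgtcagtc

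Foxd2, a relative of Foxd3 known from kidney and mesenchyme, followed another course near the background. It stood at -6.65 and -5.54 in DMSO, -4.35 and -4.48 at 0h, -4.95 and -4.27 at 30m, -4.73 and -4.74 at 1h, -5.14 and -4.57 at 2h, -4.66 and -4.47 at 4h, -7.00 and -6.54 at 8h, and -6.50 and -6.86 at 24h. The arrays from 0h to 4h were all above those of DMSO, 8h and 24h. Only 5 of the 16 arrays were well above background, so each fold is a bound. Foxd2 was at least 1.42-fold higher at 0h than in DMSO (1.68 ± 0.36 log2, limma adjusted p = 0.03336). Against 0h it was at least 1.54-fold lower at 8h (-2.35 ± 0.36, limma adjusted p = 0.006248) and at least 1.13-fold lower at 24h (-2.27 ± 0.36, limma adjusted p = 0.001652). With normexp background correction the same differences were 0.17, -0.26 and -0.24, and none passed. The 24h call held with each array left out. The 8h call was lost without 0h replicate 1 (-2.28) or 8h replicate 1 (-2.12), and that at 0h without DMSO replicate 1 (1.12), 0h replicate 1 (1.61) or 0h replicate 2 (1.75). Foxe3, a lens gene and the next coding gene to Foxd2 on chromosome 4, was not called, and its differences ranged from -0.46 to 0.49.

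Summed markers of other cell types also differed between groups, each on its own course. The summed signal of 8 neural markers was 6.32 to 8.13 times the 75th percentile in DMSO and 14.8 to 19.4 at 0h. It was 11.37 to 14.25 at 4h, 8.69 to 10.98 at 8h and 4.53 to 4.97 at 24h. The sum of 8 primitive endoderm markers was 9.20 to 12.5 in DMSO and 31.4 to 32.1 at 0h. It was 27.88 to 30.41 at 4h, 27.2 to 27.7 at 8h and 11.9 to 13.3 at 24h. At 24h against 0h, 4 of 7 tested neural markers fell and 0 rose (57.1%, against 23.7% of all genes). Of 8 tested primitive endoderm markers, 2 rose and 1 fell (37.5%), so most called members moved against their sum. The part of these cell types in the forkhead results was not tested.

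**Figure D3:**
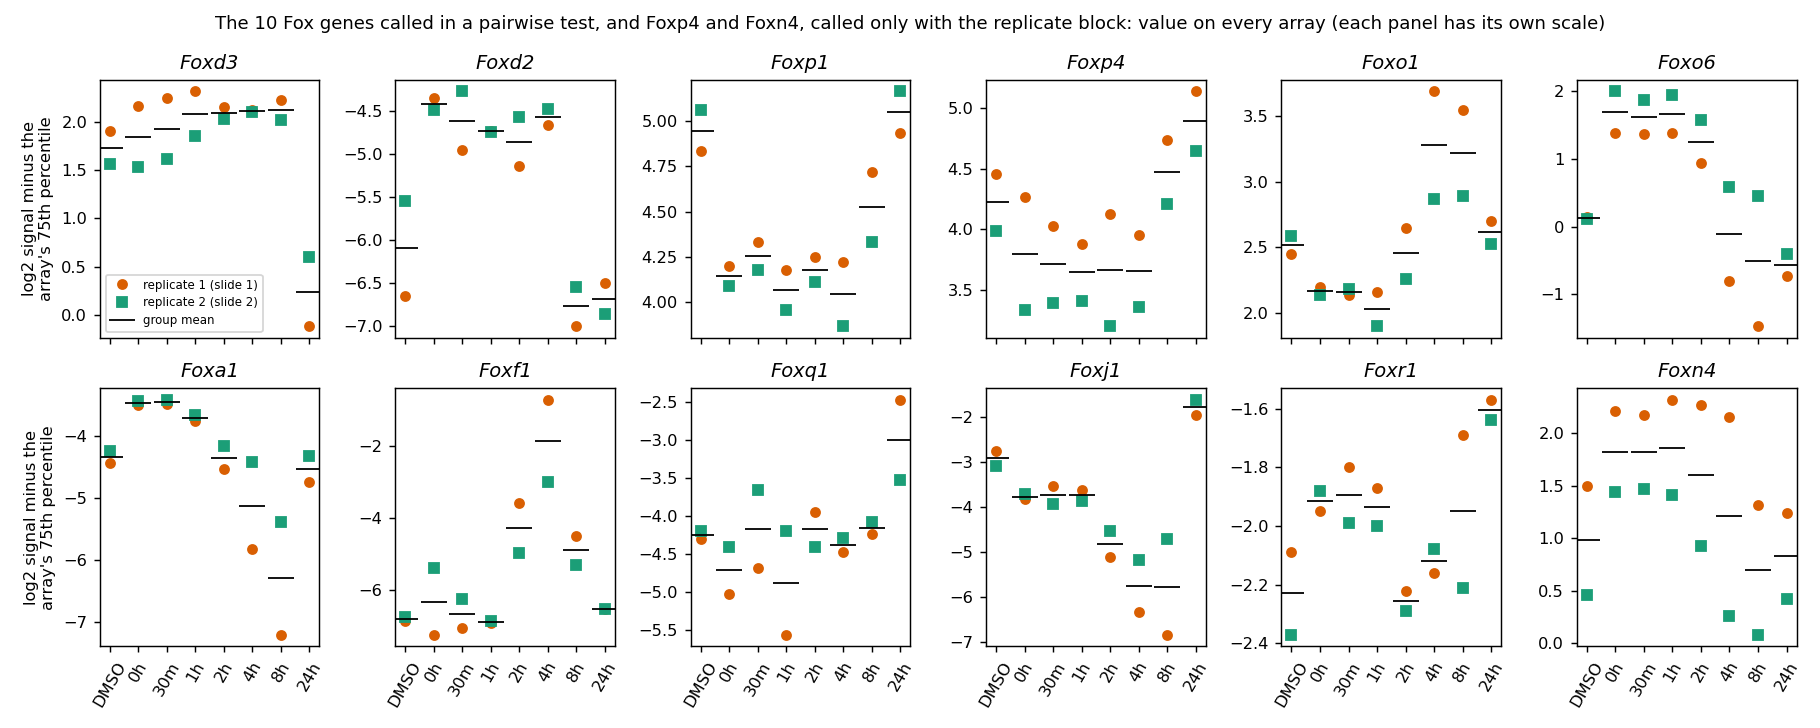
Log2 signal minus the array's 75th percentile (vertical axis, its own scale in each panel) by group (horizontal axis) for the 10 forkhead genes called in a pairwise test, and for Foxp4 and Foxn4, called only with the block. Circles are replicate 1 on slide 1, squares replicate 2 on slide 2 and bars group means. Foxd3 is lowest on both 24h arrays, Foxj1 is highest there, and Foxf1 peaks at 4h.

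Foxp1, a FOXP repressor with a splice form described in pluripotent cells, was lower under the inhibitor and rose at 24h. It stood at 4.83 and 5.06 in DMSO, 4.20 and 4.09 at 0h, 4.33 and 4.18 at 30m, 4.18 and 3.96 at 1h, 4.25 and 4.11 at 2h, 4.22 and 3.87 at 4h, 4.72 and 4.33 at 8h, and 4.93 and 5.16 at 24h. The DMSO and 24h arrays were above all others. It was 0.80 ± 0.18 log2 lower at 0h than in DMSO (limma difference -0.80, adjusted p = 0.04008), and 0.90 ± 0.18 higher at 24h than at 0h (limma adjusted p = 0.005288), a 1.87-fold rise. The rise at 24h held with each array left out, and the call at 0h was lost without any 1 of its 4 arrays (-0.92 to -0.69). The gene's other probes moved by 0.84 and 0.15 at 24h and by -0.88 and -0.26 at 0h, the second of each being a probe above background on 10 of 16 arrays. The probe reported and the first of these were above it on all 16. With the mean of all probes the differences were 0.63 and -0.65 and did not pass, and with median centring they were 0.81 and -0.73 and did not pass. With the block Foxp1 also passed at 24h against 8h (0.51, limma adjusted p = 0.04448).

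Foxp4, another FOXP repressor, was called only with the block. It stood at 4.46 and 3.99 in DMSO, 4.27 and 3.33 at 0h, 4.03 and 3.39 at 30m, 3.88 and 3.41 at 1h, 4.13 and 3.20 at 2h, 3.95 and 3.36 at 4h, 4.74 and 4.21 at 8h, and 5.14 and 4.65 at 24h. Replicate 1 was above replicate 2 in all 8 groups, by a median of 0.56. The difference at 24h from 0h was 1.09 ± 0.42 (limma adjusted p = 0.0914 without the block and 0.000322 with it), and its other probes moved by 0.78 and 1.07. With the block it also passed at 8h (0.67, limma adjusted p = 0.01083) and at 24h against DMSO (0.67, 0.008401). On slides 1 and 2 these 3 differences were 0.87 and 1.32, 0.47 and 0.88, and 0.68 and 0.66. Leaving out 1 array, in fits without the block, moved them over 0.63 to 1.56, 0.21 to 1.14 and 0.42 to 0.92. The lowest came without 0h replicate 2 for the first and second and without 24h replicate 1 for the last. These ranges include the difference between slides. Foxp3, the factor of regulatory T cells, ran the other way between slides, 1.16 higher on slide 2 by the median over groups, and its differences between groups lay between -0.19 and 0.30, none of which passed. Foxp2 was not above background on any array.

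Among the FOXO genes, which answer growth factor and stress signals, Foxo1 rose at 8h and Foxo6 fell at 24h. Foxo1 stood at 2.45 and 2.59 in DMSO, 2.20 and 2.14 at 0h, 2.14 and 2.18 at 30m, 2.16 and 1.90 at 1h, 2.65 and 2.26 at 2h, 3.69 and 2.87 at 4h, 3.55 and 2.89 at 8h, and 2.70 and 2.53 at 24h. The 4h and 8h arrays were above all others, and slide 1 was higher than slide 2 there. Foxo1 was 2.07-fold higher at 8h than at 0h (1.05 ± 0.28 log2, limma adjusted p = 0.04975). At 4h the difference was 1.11 ± 0.28 (limma adjusted p = 0.05978 without the block and 0.01178 with it). Its other probe moved by 1.18 at 4h and 1.13 at 8h. The 8h call was lost without 0h replicate 1 (1.08), 8h replicate 1 (0.72) or 0h replicate 2 (1.03), and with arrays as attached to the scanner files the difference was -0.41. It was also lost with median centring (limma adjusted p = 0.221), normexp correction (0.07341) and no filter on dim probes (0.0754).

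Foxo6, the FOXO gene known best from brain, stood at 0.15 and 0.11 in DMSO, 1.38 and 2.00 at 0h, 1.37 and 1.87 at 30m, 1.38 and 1.95 at 1h, 0.94 and 1.58 at 2h, -0.80 and 0.59 at 4h, -1.47 and 0.46 at 8h, and -0.73 and -0.41 at 24h. The arrays from 0h to 2h were all above the others. At 24h it was 4.79-fold lower than at 0h (-2.26 ± 0.60, limma adjusted p = 0.02087), by -2.11 on slide 1 and -2.41 on slide 2, and its other probe moved by -1.14. With the block Foxo6 passed also at 4h (-1.80, limma adjusted p = 0.01688), at 8h (-2.20, 0.005788) and, higher, at 0h against DMSO (1.56, 0.02811). Without 4h replicate 1 the 4h difference was -1.11, and without 8h replicate 1 that at 8h was -1.23. The 24h call was lost without any 1 of its 4 arrays (-2.57 to -1.95), and with arrays as attached to the scanner files the difference was 0.48. The neural marker sum given above was likewise high at 0h and low in DMSO and at 24h, and its part in the Foxo6 result was not tested.

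Foxo3 and Foxo4 did not pass without the block. Foxo3, the FOXO gene known for stem cell quiescence, stood at -3.13 and -2.85 in DMSO, -3.30 and -2.69 at 0h, -3.11 and -2.76 at 30m, -2.86 and -2.60 at 1h, -3.02 and -2.92 at 2h, -3.63 and -3.06 at 4h, -3.66 and -3.02 at 8h, and -3.67 and -3.30 at 24h. The difference at 24h from 0h was -0.49 (limma adjusted p = 0.01873 with the block), and 24h was lower than 0h on both slides. From DMSO it was -0.50 (limma adjusted p = 0.02759 with the block). On slides 1 and 2 the first was -0.37 and -0.61, and the second -0.54 and -0.45. Leaving out 1 array, in fits without the block, moved the first from -0.80 (without 0h replicate 1) to -0.19 (without 0h replicate 2). It moved the second from -0.68 (without 24h replicate 2) to -0.31 (without 24h replicate 1). These ranges include the difference between slides. Foxo4 ranged from -4.22 to -1.63, and its highest value was DMSO replicate 1, while DMSO replicate 2 was at -3.52.

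Genes known as FOXO targets moved in both directions. Of 18 tested, 4 rose and 7 fell at 24h against 0h (61.1%, against 23.7% of all genes), and 5 and 8 with the block (72.2%, against 39.5%), with a median of -0.55 log2 against -0.01 for all genes. Among those that fell were Sod2, a mitochondrial superoxide dismutase, at -1.36 ± 0.12, Cdkn1b, the cell cycle inhibitor p27, at -1.19 ± 0.12, Pink1, a kinase of mitochondrial quality control, at -1.21 ± 0.14, and Klf2 at -1.56 ± 0.26. Those that rose were Trib1 at 3.19 ± 0.61, Gadd45a, a stress response gene, at 2.95 ± 0.33, Bcl2l11, which encodes the death factor BIM, at 2.44 ± 0.31, and Txnip, a thioredoxin inhibitor, at 1.57 ± 0.15. Under the inhibitor, 0h against DMSO, 4 rose and 0 fell (22.2%, against 3.5% of all genes), and 4 and 2 with the block (33.3%, against 15%), with a median of 0.38. They were Pink1 (1.28 ± 0.14), Cdkn1b (0.83 ± 0.12), Cat, the enzyme catalase (0.66 ± 0.15), and Sod2 (0.63 ± 0.12), all 4 of which were lower at 24h than at 0h. Both comparisons share the 0h arrays. Of 16 FOXO regulators, 2 rose and 3 fell at 24h against 0h (31.2%, against 23.7% of all genes), with a median of 0.01. They were Akt1, a kinase that holds FOXO proteins out of the nucleus (0.70 ± 0.17), and Mdm2 (0.76 ± 0.19), against Insr, the insulin receptor (-0.72 ± 0.20), Sgk3 (-0.57 ± 0.13) and Pdpk1 (-0.49 ± 0.13).

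Foxa1, an endoderm pioneer factor, fell at 8h. Its values were -4.43 and -4.24 in DMSO, -3.50 and -3.43 at 0h, -3.48 and -3.41 at 30m, -3.75 and -3.65 at 1h, -4.53 and -4.16 at 2h, -5.82 and -4.42 at 4h, -7.20 and -5.38 at 8h, and -4.73 and -4.32 at 24h. Neither 8h array was well above background. Foxa1 was at least 2.97-fold lower at 8h than at 0h (-2.82 ± 0.53, limma adjusted p = 0.01624). With normexp background correction the difference was -0.50 (limma adjusted p = 0.03223), so the bound depends on the background correction. With the block it also passed at 4h (-1.66, limma adjusted p = 0.02929) and, higher, at 24h against 8h (1.76, 0.0162). Without 4h replicate 1 the former was -0.95, and without 8h replicate 1 the latter 0.86. The 8h call was lost without 0h replicate 1 (-2.86), 8h replicate 1 (-1.91) or 0h replicate 2 (-2.78), and with arrays as attached to the scanner files the difference was 0.27.

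Foxa2, the FOXA gene of definitive endoderm, was not called in a pairwise comparison. It stood at -5.10 and -4.35 in DMSO, -4.32 and -4.07 at 0h, -4.60 and -4.24 at 30m, -4.99 and -4.52 at 1h, -4.30 and -4.03 at 2h, -2.68 and -2.98 at 4h, -3.34 and -4.45 at 8h, and -4.10 and -5.06 at 24h. Both 4h arrays were above all others, and the difference from 0h was 1.36 ± 0.41 (limma adjusted p = 0.1083, and 0.05846 with the block). Its test over all groups gave an adjusted p of 0.0599 in limma, and 0.04548 with the block. Foxa3 ranged between -0.36 and 0.43 in its differences. Of 8 tested endoderm genes that act with FOXA2, Gata6 (4.76 ± 0.53) and Pdgfra (at least 2.70-fold) rose at 24h and 0 fell (25%, against 23.7% of all genes, so the share was near that of all genes). Both are also in the list of primitive endoderm markers, and that list's summed signal was lower at 24h than at 0h.

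Foxf1, a gene of lateral mesoderm, peaked at 4h. It stood at -6.87 and -6.77 in DMSO, -7.25 and -5.41 at 0h, -7.08 and -6.26 at 30m, -6.94 and -6.86 at 1h, -3.58 and -4.97 at 2h, -0.72 and -3.00 at 4h, -4.51 and -5.31 at 8h, and -6.54 and -6.55 at 24h. Both 4h arrays were above all others, and the gene was well above background on 4 of the 16 arrays. It was at least 9.92-fold higher at 4h than at 0h (4.47 ± 0.77 log2, limma adjusted p = 0.01905), by 6.53 on slide 1 and 2.40 on slide 2. With normexp background correction the difference was 2.01 log2 (limma adjusted p = 0.0288), so the bound depends on the background correction. The call was lost without 0h replicate 1 (3.55) or 4h replicate 1 (3.32). A second probe of Foxf1, not above background on any array, moved by 0.28, and with the mean of both probes the difference was 2.37 and did not pass. With arrays as attached to the scanner files Foxf1 was not tested.

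Forkhead genes lie in clusters. Foxf1 lies near Foxc2 and Foxl1 on chromosome 8, and Foxq1, Foxf2 and Foxc1 are consecutive coding genes on chromosome 13. Foxc1, a mesoderm gene, had values from -7.52 to -5.58, the highest on 24h replicate 1, and none was well above background. Foxq1 stood at -4.30 and -4.19 in DMSO, -5.02 and -4.41 at 0h, -4.68 and -3.65 at 30m, -5.56 and -4.19 at 1h, -3.94 and -4.41 at 2h, -4.47 and -4.29 at 4h, -4.23 and -4.08 at 8h, and -2.47 and -3.53 at 24h. Both 24h arrays were above all others. Foxq1 was 3.28-fold higher at 24h than at 0h (1.71 ± 0.49, limma adjusted p = 0.02939), with 1 of 2 arrays at 0h above background, by 2.55 on slide 1 and 0.87 on slide 2. This call was lost without 0h replicate 1 (1.41), 24h replicate 1 (1.18) or 0h replicate 2 (2.02).

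Of 13 mesoderm genes that act with FOXC and FOXF, 3 rose at 4h, 6 rose and 1 fell at 8h, and 5 rose at 24h (23.1%, 53.8% and 38.5%, against 3.18%, 6.74% and 23.7% of all genes). With the block 4 were higher and 1 lower, 8 and 2, and 5 and 2 (38.5%, 76.9% and 53.8%, against 16%, 21% and 39.5%). Their medians at these times were 0.17, 1.58 and 0.83 log2. Hand1, a gene of lateral mesoderm, was 1.86 ± 0.30 higher at 4h, 2.93 ± 0.30 at 8h and 4.64 ± 0.30 at 24h. Twist1 was higher by 4.24 ± 0.64 at 4h, 2.51 ± 0.64 at 8h and 3.38 ± 0.64 at 24h. Thy1, a fibroblast marker that other cells also make, was higher by 2.54 ± 0.21 at 8h and 2.34 ± 0.21 at 24h, and the fibroblast sum was 2.65 to 5.80 through 4h, 13.2 to 19.6 at 8h and 13.75 to 14.45 at 24h. Thy1 was the only 1 of 6 tested fibroblast markers called at 8h or 24h (16.7%, against 6.74% and 23.7% of all genes). With the block 1 was higher at 8h (16.7%, against 21% of all genes), and 1 higher and 1 lower at 24h (33.3%, against 39.5%). The medians of the 6 were -0.31 and -0.20 log2, so the sum does not stand for the list. The fibroblast genes Lum and Fap were not above background on any array. The 4 Erk response genes Spry4, Egr1, Fos and Dusp6 were all higher at 4h, 8h and 24h.

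Foxj1, the master gene of motile cilia, rose at 24h. It stood at -2.76 and -3.08 in DMSO, -3.83 and -3.71 at 0h, -3.53 and -3.94 at 30m, -3.62 and -3.87 at 1h, -5.12 and -4.54 at 2h, -6.33 and -5.18 at 4h, -6.84 and -4.71 at 8h, and -1.95 and -1.62 at 24h. Both 24h arrays were above all others. Foxj1 was 3.99 ± 0.58 log2 higher at 24h than at 8h (limma adjusted p = 0.003291), by 4.89 on slide 1 and 3.09 on slide 2. Of the 2 arrays at 8h 1 was well above background, so no fold is given, and the call held with each array left out. Against 0h it was 3.96-fold higher at 24h (1.98 ± 0.58, limma adjusted p = 0.03169), by 1.88 on slide 1 and 2.09 on slide 2, and this call was lost without any 1 of its 4 arrays (1.82 to 2.15). With the block the lower level passed at 4h (-1.98, limma adjusted p = 0.0367) and 8h (-2.00, 0.02897), at 4h by at least 2.18-fold, and without 8h replicate 1 the 8h difference was -0.94. With normexp background correction the 4h difference was -0.17, so the bound depends on the background correction. Foxj2 and Foxj3 were called in no comparison.

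Of Foxr1 and Foxr2, a pair of lesser known forkhead genes, Foxr1 was called at 24h against DMSO and Foxr2 only with the block. Foxr1 stood at -2.09 and -2.37 in DMSO, -1.95 and -1.88 at 0h, -1.80 and -1.99 at 30m, -1.87 and -2.00 at 1h, -2.22 and -2.29 at 2h, -2.16 and -2.08 at 4h, -1.69 and -2.21 at 8h, and -1.57 and -1.64 at 24h. It was 0.62 ± 0.17 higher at 24h than in DMSO (limma adjusted p = 0.04339), and the call was lost without any 1 of its 4 arrays (0.49 to 0.76), and with median centring (0.61), normexp correction (0.33) and no filter on dim probes (limma adjusted p = 0.06754). Foxr2 stood at -1.35 and -0.90 in DMSO, -1.22 and -1.17 at 0h, -1.25 and -1.29 at 30m, -1.36 and -1.30 at 1h, -2.59 and -1.56 at 2h, -3.18 and -1.86 at 4h, -3.52 and -1.56 at 8h, and -4.55 and -1.81 at 24h. From 2h on, slide 1 was well below slide 2. The difference at 24h was -1.98 from 0h (limma adjusted p = 0.03126 with the block) and -2.05 from DMSO (0.03938 with the block), and neither passed without the block. Leaving out 24h replicate 1 moved these to -0.61 and -0.68, and leaving out 24h replicate 2 to -3.36 and -3.42.

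Foxh1, through which Nodal signals reach DNA, was not called in any test. It stood at 2.57 and 2.12 in DMSO, 2.06 and 2.10 at 0h, 2.23 and 2.08 at 30m, 2.34 and 2.02 at 1h, 2.22 and 1.96 at 2h, 2.30 and 1.96 at 4h, 2.10 and 1.99 at 8h, and 2.22 and 1.93 at 24h. Its differences ranged from -0.27 to 0.10, and each 4OHT group overlapped 0h. Of 14 tested partners and targets in the Nodal pathway, 0 rose and 5 fell at 24h against 0h (35.7%, against 23.7% of all genes), and 0 and 8 with the block (57.1%, against 39.5%), with a median of -0.61 log2. The Nodal antagonists Lefty1 and Lefty2 fell by 5.52 ± 1.32 and 4.97 ± 0.86 on the log2 scale, and Gsc, a gene of the organiser, was at least 6.09-fold lower. Acvr1b, a receptor of Nodal, was -0.81 ± 0.26.

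Foxm1, the driver of cell division genes, was called only with the block. It stood at 1.92 and 1.65 in DMSO, 2.16 and 1.79 at 0h, 2.10 and 1.79 at 30m, 2.06 and 1.71 at 1h, 2.03 and 1.55 at 2h, 1.67 and 1.55 at 4h, 1.62 and 1.53 at 8h, and 1.64 and 1.45 at 24h. All 6 arrays from 4h on were below both 0h arrays. The differences from 0h were -0.37 at 4h (limma adjusted p = 0.04895 with the block), -0.40 at 8h (0.02905) and -0.44 at 24h (0.01065). Its other probe, above background on all 16 arrays, moved by -0.21, -0.26 and -0.30. Leaving out 1 array, in fits without the block, moved the differences over -0.55 to -0.18, -0.59 to -0.22 and -0.62 to -0.25. These ranges include the difference between slides. Of 16 FOXM1 targets, the limma fit called 0 in either direction at 24h against 0h (0%, against 23.7% of all genes), with a median of -0.06. With the block 0 were higher and 3 lower (18.8%, against 39.5% of all genes).

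Foxk1 and Foxk2, regulators of metabolism and autophagy, were also called only with the block. Foxk1 stood at 0.59 and 0.42 in DMSO, 0.35 and 0.08 at 0h, 0.33 and 0.06 at 30m, 0.13 and 0.00 at 1h, 0.03 and -0.09 at 2h, -0.13 and 0.04 at 4h, 0.77 and 0.49 at 8h, and 0.22 and 0.23 at 24h. It was 0.41 higher at 8h than at 0h (limma adjusted p = 0.0385 with the block) and -0.41 at 24h against 8h (0.03784). Foxk2 stood at 2.06 and 2.25 in DMSO, 2.07 and 2.24 at 0h, 2.02 and 2.23 at 30m, 2.01 and 2.00 at 1h, 1.90 and 2.05 at 2h, 1.46 and 1.95 at 4h, 1.81 and 2.12 at 8h, and 2.57 and 2.59 at 24h. Both 24h arrays of Foxk2 were above all others, and at 4h it was -0.61 from 0h on slide 1 and -0.28 on slide 2. Its differences were -0.45 at 4h (limma adjusted p = 0.03674 with the block), 0.43 at 24h (0.0196), 0.43 at 24h against DMSO (0.02977) and 0.61 at 24h against 8h (0.007075).

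Foxn4, Foxn3 and Foxe1 were called only with the block. Foxn4, a gene of retina and spinal cord, stood at 1.50 and 0.46 in DMSO, 2.21 and 1.44 at 0h, 2.18 and 1.47 at 30m, 2.32 and 1.41 at 1h, 2.27 and 0.93 at 2h, 2.16 and 0.26 at 4h, 1.32 and 0.08 at 8h, and 1.24 and 0.42 at 24h, with slide 1 higher in all 8 groups. It was -1.13 at 8h (limma adjusted p = 0.01503 with the block), by -0.89 on slide 1 and -1.36 on slide 2. At 24h it was -0.99 (0.012), by -0.97 and -1.02. Leaving out 1 array, in fits without the block, moved these over -1.74 to -0.51 and -1.40 to -0.58. The smallest came without 8h replicate 2 and without 24h replicate 2. These ranges include the difference between slides. Foxn3, known as a checkpoint suppressor, stood at 0.59 and 0.69 in DMSO, 0.87 and 0.49 at 0h, 0.80 and 0.46 at 30m, 0.23 and 0.40 at 1h, 0.48 and 0.57 at 2h, -0.24 and 0.22 at 4h, 0.15 and 0.46 at 8h, and 0.34 and 0.46 at 24h. It was -0.69 at 4h (limma adjusted p = 0.04059 with the block), by -1.11 on slide 1 and -0.27 on slide 2. Foxe1, a thyroid gene, stood at -4.21 and -3.79 in DMSO, -4.01 and -3.86 at 0h, -3.77 and -3.43 at 30m, -3.33 and -3.15 at 1h, -3.65 and -3.96 at 2h, -2.44 and -3.16 at 4h, -3.43 and -4.16 at 8h, and -3.49 and -3.99 at 24h. It was 1.13 at 4h (limma adjusted p = 0.03366 with the block), by 1.57 on slide 1 and 0.70 on slide 2.

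**Figure D4:**
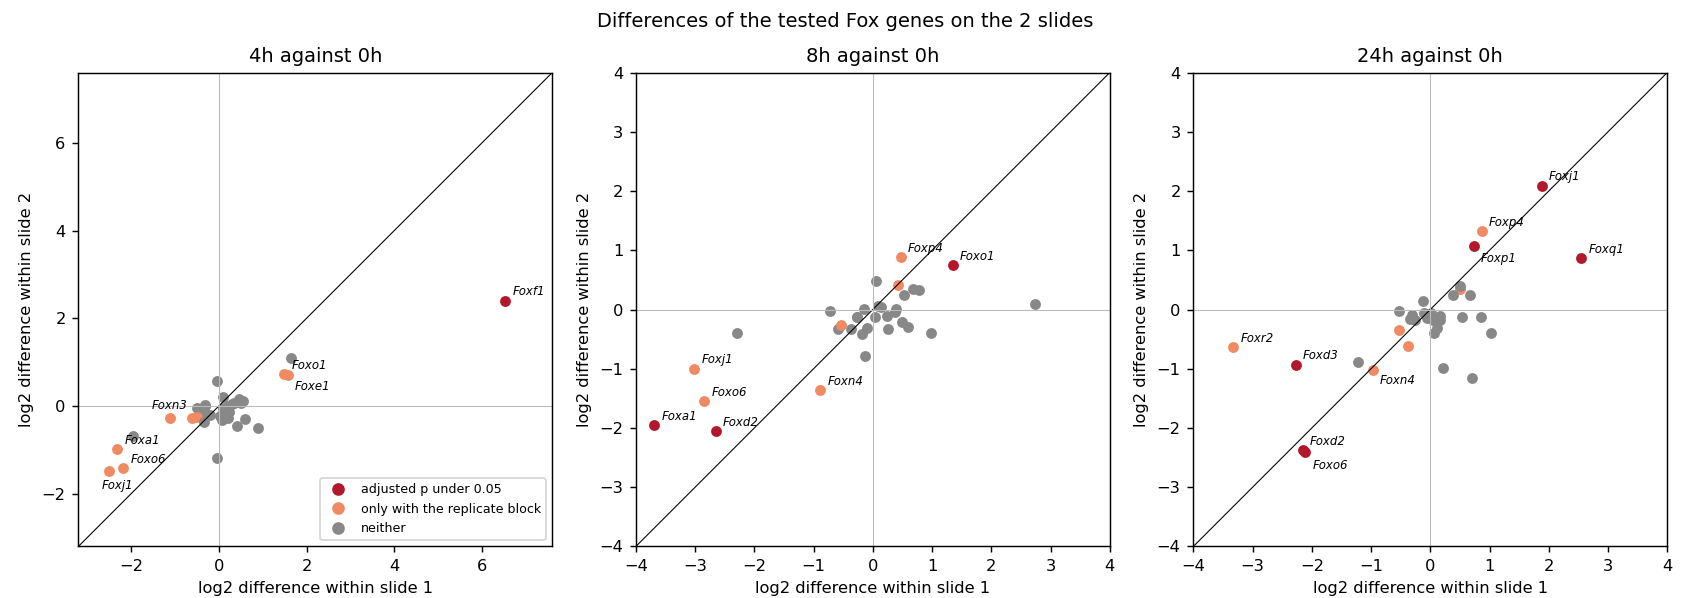
Difference from 0h within slide 1 (horizontal axis) and within slide 2 (vertical axis), in log2, for the tested forkhead genes shown at 4h, 8h and 24h, with 1 array per group on each slide and the line of equal differences. All called genes (dark red) lie on the same side of 0 on both slides, which the call itself favours. Foxf1 at 4h moves by 6.53 on slide 1 and 2.40 on slide 2.

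The slides differed for single genes. In 10 of the 35 forkhead genes (28.6%, against 30.7% of all genes) 1 slide was higher in all 8 groups. At 24h the difference from 0h had the same sign on both slides for 23 of 35 forkhead genes (65.7%, against 77.5% of all genes), at 8h for 27 (77.1%, against 72.6%) and at 4h for 24 (68.6%, against 73.6%). Among the called genes the sign was the same on both slides in each comparison. A call needs a mean difference that is large against the spread between arrays. That favours a shared sign, so the agreement of called genes is no further support.

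The 15 genes called in no pairwise comparison, with or without the block, were Foxa2, Foxa3, Foxd4, Foxe3, Foxh1, Foxi1, Foxi2, Foxi3, Foxj2, Foxj3, Foxl2, Foxn2, Foxo4, Foxp3 and Foxs1. Their differences ranged from -1.31 in Foxo4 to 1.36 in Foxa2. A p that misses the threshold at 2 arrays per group does not show that these genes did not differ.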

How the data were processed

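Arrays were Agilent mouse 1-colour arrays. The authors' deposited scanner files, written by Agilent Feature Extraction per the file headers, give for each spot an intensity already corrected for background and spatial trend, with flags for spots well above background, saturated or outlying. The labels name Cy5 while the files hold the green channel. The deposited value table holds the same intensities, rounded, and gave each array's sample (match at 100% of spots, tolerance 0.6%, next best column 4.99%). The 4h samples' description gives minutes, and their title and time point 4h.

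Here, the log2 of the processed intensity minus each array's 75th percentile was taken, without control and outlier spots. Of 55681 probes, 27656 matched 1 RefSeq gene by accession, 28025 none and 0 several. The probe with the highest mean signal stood for its gene, which was tested where both arrays of some group had that probe well above background. limma 3.58.1 in R 4.3.3 fitted 8 group means over 16 arrays (8 residual degrees of freedom). The fit was tested on simulated data. A group with no array well above background has only a bound: "at least" folds use the lowest signal well above background on its arrays, or the probe's own where higher.

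The replicate number, which equals the slide per the file headers, paired the arrays: deviations from group means correlated at 0.329 to 0.659 between arrays of 1 number. The correlation of replicates over genes was 0.982 to 0.990. The block is given where it changes a call of a gene named here. All fits with 1 array left out had no block, so a difference between slides enters their values.

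The members and lists were chosen with earlier results of these data known. Forkhead genes could be named, except 1 that is counted but not reported here, and array values were given for those called and for Foxd3, Foxh1, Foxo1, Foxo3, Foxm1, Foxp1, Foxa2, Foxc1 and Foxk1. Other genes come from the lists. Alternatives were another scaling, normexp background correction, no filter, a stricter filter, the mean of probes, the other record of array identity, fits of 2 groups, a minimum size and leaving out each array.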

Additional observations from a re-analysis of the deposited data

How the results depend on the processing

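The counts of called forkhead genes were 2 for 0h against DMSO, 0 at 30m, 1h and 2h, 1 at 4h, 3 at 8h and 6 at 24h against 0h, 2 at 24h against DMSO and against 8h, and 9 over all groups. With the replicate block they were 4 for 0h against DMSO, 10 at 4h, 9 at 8h, 12 at 24h, 7 at 24h against DMSO, 6 at 24h against 8h and 19 over all groups, and all 16 main calls were kept. With arrays as attached to the scanner files they were 0 for 0h against DMSO, 3 at 2h, 3 at 4h, 3 at 24h, 0 at 24h against 8h and 3 over all groups (of all genes 0.0379%, 3.58%, 1.99%, 2.15%, 0.101% and 4.22%), and 3 values reversed: Foxa1 at 8h to 0.27, Foxo1 at 8h to -0.41 and Foxo6 at 24h to 0.48. The cause was not tested.

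Fits of only the 2 groups compared, which leave 2 residual degrees of freedom, gave 0 for 0h against DMSO, 0 at 4h, 0 at 8h, 3 at 24h, and 0 at 24h against DMSO and against 8h. Of all 15660 genes these fits called 0 at 0h against DMSO, 4h, 8h and 24h against 8h, 1 at 24h against DMSO and 9.77% at 24h. With only genes above background on all 16 arrays the count was 1 for 0h against DMSO, 3 at 24h and 1 at 24h against 8h (of all such genes 4.23%, 24.8% and 9.86%). A minimum of 1 on the log2 scale left 1 for 0h against DMSO and 1 at 24h against DMSO. The mean of all probes gave 1 for 0h against DMSO and 2 at 4h (3.33% and 2.83% of all genes). Median centring gave 1 for 0h against DMSO, 0 at 24h against DMSO and 5 over all groups (1.65%, 5.11% and 11.1%), and it moved the all-gene median by at most 0.14 (2h, 0.04 to -0.10). No filter on dim probes gave 0 for 0h against DMSO and 1 at 24h against DMSO (1.62% and 6.83%), and normexp correction 2 at 4h (3.05%). Of the 16 main calls, 11 were kept with median centring, 11 with normexp, 12 without the filter, 13 with the mean of probes, 13 with the minimum size and 3 in fits of 2 groups. Other counts stayed within 1.5 times the main one.

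Leaving out 1 array in turn gave 0 to 2 for 0h against DMSO, 0 to 3 at 4h, 0 to 5 at 8h, 3 to 5 at 24h, 0 to 2 at 24h against DMSO, 1 to 3 at 24h against 8h and 4 to 11 over all groups, with the lone array assumed to vary like the other groups. Levels near background limit Foxd2, Foxa1, Foxf1 and Foxj1, some of whose folds are bounds, and Foxq1, which was above background on 1 of 2 arrays at 0h.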
